A study of Homo sapiens with 18 samples.

Results

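AUTS2, TBC1D22A, IGF2, HRK and ANXA2 are 5 genes with RNA peaks at the same place for 2 mutants of the transcription factor MYC. The RNA was recovered by immunoprecipitation, and wild-type MYC had no peak there. They were chosen by overlap of the deposited peak lists. Each holds a peak of the mutant named 3A that shares at least 1 bp with a peak of the mutant named 7A and none with a wild-type peak. The 5 genes are among 59716 annotated genes, and they held 7 of the 103 peaks of the 3A list, 9 of the 88 peaks of the 7A list and 0 of the 2149 peaks of the wild-type list. The overlap was thus the ground for choosing the genes, and it is described here without a test.

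The assay was eCLIP, enhanced crosslinking and immunoprecipitation read out by sequencing, in which ultraviolet light fixes proteins to the RNA they touch and the RNA pulled down with 1 protein is sequenced. The material was U2OS, an osteosarcoma line, with its own MYC knocked out and a FLAG-tagged MYC under doxycycline control, as the 3A, 7A or wild-type allele. The residues altered in 3A and 7A are not in the labels, and neither is whether a line is 1 clone. The series has 18 libraries in 12 groups: for each allele, 2 FLAG immunoprecipitates and 1 input from cells given doxycycline at 1 µg/mL for 24 h, and as many from cells given phosphate-buffered saline (PBS) for 24 h. Cells of every group were given ultraviolet light of 254 nm at 400 mJ/cm². The 3 peak lists used here belong to the doxycycline-treated immunoprecipitates, 1 list per allele. No value therefore has a replicate or an error, the sequencing depth behind each list is unknown, and the level in cells given PBS was not analysed here. Fold enrichment, given by the authors for each peak over a control that the sources do not name, is used only to rank peaks within 1 list.

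MYC is best known as a DNA-binding activator of genes for growth and metabolism, and eCLIP records instead the transcripts that it contacts. The 5 genes have different roles. AUTS2 encodes a nuclear protein of a variant Polycomb repressive complex and is known from neurodevelopment. TBC1D22A encodes a protein with a TBC domain, the domain that switches off Rab GTPases of membrane traffic. IGF2 encodes a secreted growth factor and is an imprinted gene. HRK encodes a BH3-only protein of the BCL2 family that promotes apoptosis, and ANXA2 encodes a calcium-dependent membrane-binding protein. A peak at a gene says that RNA from its position was recovered, and it does not give the level of the transcript, which was not measured here.

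AUTS2, with the longest span of the 5 genes (1195 kb on chromosome 7, from 69598475 to 70793506), had 2 neighbouring peaks in the 3A list. The first lay from 70496206 to 70497007, with a −log10 q of 63.2 and a fold enrichment of 16.6 (rank 10 of 103). The second lay from 70497132 to 70497490, with a fold enrichment of 17.7 (rank 9) and a −log10 q of 56.7. Only 124 bp separated them. In the 7A list the same place also held 2 peaks, 159 bp apart. They lay from 70496589 to 70496992, with a fold enrichment of 13.5 (rank 28 of 88), and from 70497152 to 70497586, with 21.7 (rank 9). The stronger peak of the pair by fold enrichment was the downstream one in both lists.

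The 7A list held 2 further AUTS2 peaks that no 3A peak met. The nearer one, from 70495109 to 70495697, lay 891 bp upstream of the 7A peaks of the shared pair. Its fold enrichment was 11.1 (rank 33). The 3A peaks of the pair began closer to it, at 70496206. The other lay 196 kb downstream, from 70693850 to 70693949, with 7.12 (rank 60). It was on the minus strand, opposite to AUTS2, while every other AUTS2 peak was on the plus strand, that of the gene. It had the least width that occurs in the list, 100 bp, and ranked 81 of 88 by −log10 q. The AUTS2 peaks were in no other annotated gene.

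TBC1D22A (413 kb on chromosome 22, from 46762650 to 47175699) had the same arrangement of 2 adjoining peaks per mutant on the strand of the gene. The 3A peaks lay from 47003821 to 47004178, with a fold enrichment of 9.86 (rank 29 of 103), and from 47004247 to 47006188, with 13.8 (rank 13). They were 68 bp apart. The 7A peaks lay from 47003801 to 47004172, with a fold enrichment of 7.51 (rank 58 of 88), and from 47004498 to 47005642, with 18.2 (rank 14), and were 325 bp apart. In both lists the downstream peak was the wider one and the one of higher fold enrichment. At 1942 bp the downstream 3A peak was the widest of the whole 3A list, and the first AUTS2 peak, at 802 bp, was the next. In the 7A list the corresponding TBC1D22A peak of 1145 bp was rank 9 by width.

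**Figure D1:**
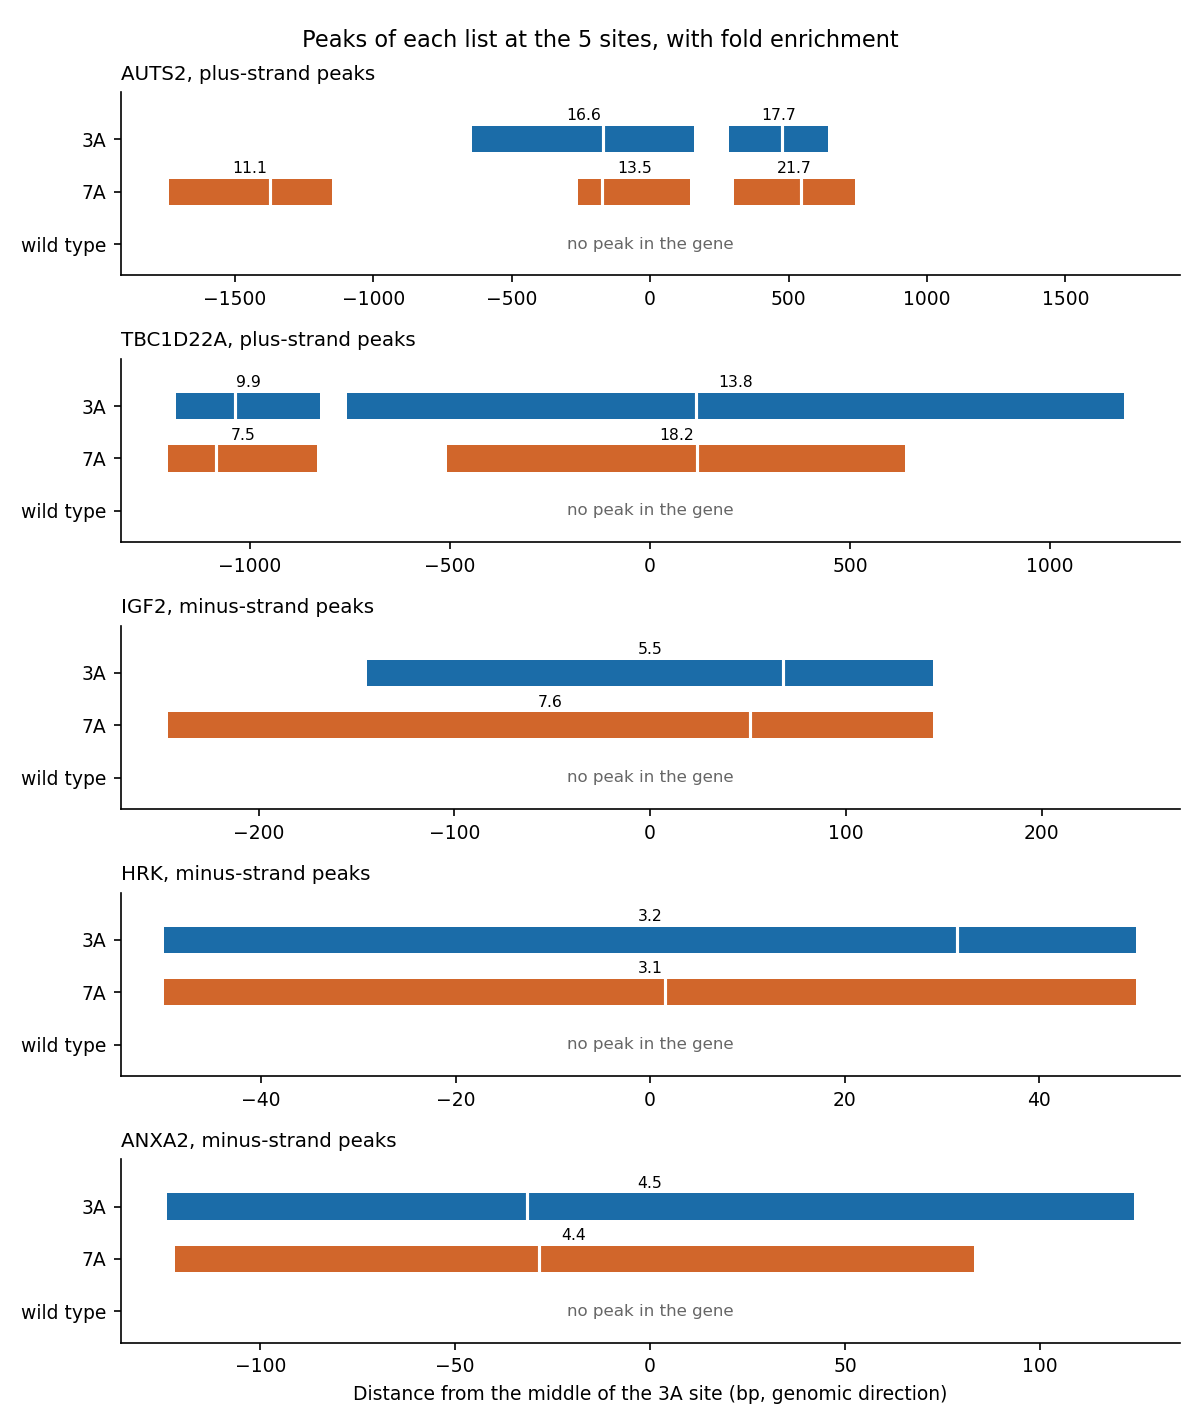
Peaks of the 3A, 7A and wild-type lists at the 5 sites, drawn to scale within each panel, with distance in bp from the middle of the 3A site on the horizontal axis. Bars are peaks on the strand shown, white lines their summits and numbers the authors' fold enrichments; the minus-strand 7A peak of AUTS2, 196 kb away, is not drawn. By the choice of the genes, each of the 5 holds 3A and 7A peaks that lie over each other. None of the genes holds a wild-type peak.

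The IGF2 site was a single minus-strand peak in each mutant list. IGF2 lies on chromosome 11 from 2129117 to 2149566. The 3A peak, from 2131239 to 2131527, had a fold enrichment of 5.46 (rank 54 of 103) and a −log10 q of 31.8. The 7A peak, from 2131137 to 2131527, had a fold enrichment of 7.64 (rank 56 of 88) and a −log10 q of 59.4. They had the same upper end, and the 7A peak reached 102 bp further at the lower one. By −log10 q the 7A peak stood higher in its list, at rank 15, and the 3A peak stood at rank 53, near the middle of its own. INS-IGF2, a readthrough gene that joins insulin and IGF2 sequence and is on the minus strand, spans the same position, so the peaks cannot be given to one of the pair. The microRNA gene MIR483, also inside IGF2, was 2606 bp away, and H19, the imprinted non-coding neighbour of IGF2, had no peak in any of the 3 lists.

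HRK held the weakest of the shared sites. HRK spans 116856144 to 116881441 on chromosome 12. The 3A and 7A peaks there had identical ends, 116879510 and 116879609, on the minus strand of the gene. The 3A peak had a fold enrichment of 3.21 (rank 85 of 103) and a −log10 q of 8.88 (rank 100). The 7A peak had 3.13 (rank 82 of 88) and 6.94 (rank 82). Both were 100 bp wide, the least width in all 3 lists, at which 4 of the 3A peaks and 5 of the 7A peaks stood. Although the ends were identical, the summits were 30 bp apart.

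ANXA2 carried its site at the very end of the gene. ANXA2 lies on chromosome 15 from 60347151 to 60397986, on the minus strand. The 3A peak, from 60347377 to 60347624, had a fold enrichment of 4.53 (rank 65 of 103) and a −log10 q of 47.0 (rank 35). The 7A peak, from 60347379 to 60347583, had a fold enrichment of 4.35 (rank 70 of 88) and a −log10 q of 43.8 (rank 21). The starts differed by 2 bp and the summits by 3 bp, and in both lists the peak stood higher by −log10 q than by fold enrichment. Its pseudogene ANXA2P2, a copy of ANXA2 on chromosome 9 from 33624225 to 33625534, had a 7A peak too, from 33625103 to 33625322, with a fold enrichment of 4.95 (rank 69 of 88). The summit of that peak was 359 bp from the upper end of the pseudogene, and the ANXA2 summits were 318 bp (3A) and 321 bp (7A) from the end of ANXA2. Reads of near-identical copies can be placed at either, so the gene of origin is uncertain for these peaks. ANXA2P2 had neither a 3A nor a wild-type peak.

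The genes were chosen for overlap of a 3A and a 7A peak, so some agreement in position within a pair was built in. Of the 9 7A peaks in the 5 genes, 7 met a 3A peak, and the choice required such a peak in each gene. In the whole 7A list of 88 peaks, 21 met a 3A and a wild-type peak. A further 11 met a 3A peak and no wild-type peak. In the 7 pairs of a 3A and a 7A peak the strand was the same each time. The summits were between 3 and 69 bp apart, with a median of 17 bp, and 4 of the 7 pairs had summits within 20 bp. The 26 other pairs of the 2 lists also overlap by definition. Their median was 12.5 bp, with a range from 0 to 249 bp and 15 within 20 bp. The shared stretch covered between 50.4% and 100% of the 3A peak, with a median of 94.4%, and between 73.9% and 100% of the 7A peak, with a median of 100%. The median in the other pairs was 92.1% of the 3A peak and 100% of the 7A peak. Neither mutant had the wider peaks throughout: 3A was wider in 3 pairs (AUTS2, TBC1D22A and ANXA2), 7A in 3 (AUTS2, TBC1D22A and IGF2), and HRK had equal widths. The medians of the pairs in the 5 genes and elsewhere were not compared by a test.

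By fold enrichment the 5 genes had the same order in the 3A and the 7A list. In the 3A list AUTS2 and the downstream TBC1D22A peak were in the upper part of the ranking by fold enrichment (ranks 9, 10 and 13 of 103), and the upstream TBC1D22A peak followed at rank 29. IGF2 (54), ANXA2 (65) and HRK (85) were below the list's median of 5.54. In the 7A list the 3 plus-strand AUTS2 peaks and the downstream TBC1D22A peak had a fold enrichment above the median of 9.76. IGF2 (56), the upstream TBC1D22A peak (58), the minus-strand AUTS2 peak (60), ANXA2 (70) and HRK (82) ranked below it. By its strongest peak, AUTS2 came first in both lists, followed by TBC1D22A, IGF2, ANXA2 and HRK. By −log10 q the order was not the same, since ANXA2 stood above TBC1D22A in the 3A list (ranks 35 and 50), and IGF2 above TBC1D22A in the 7A list (ranks 15 and 19).

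**Figure D2:**
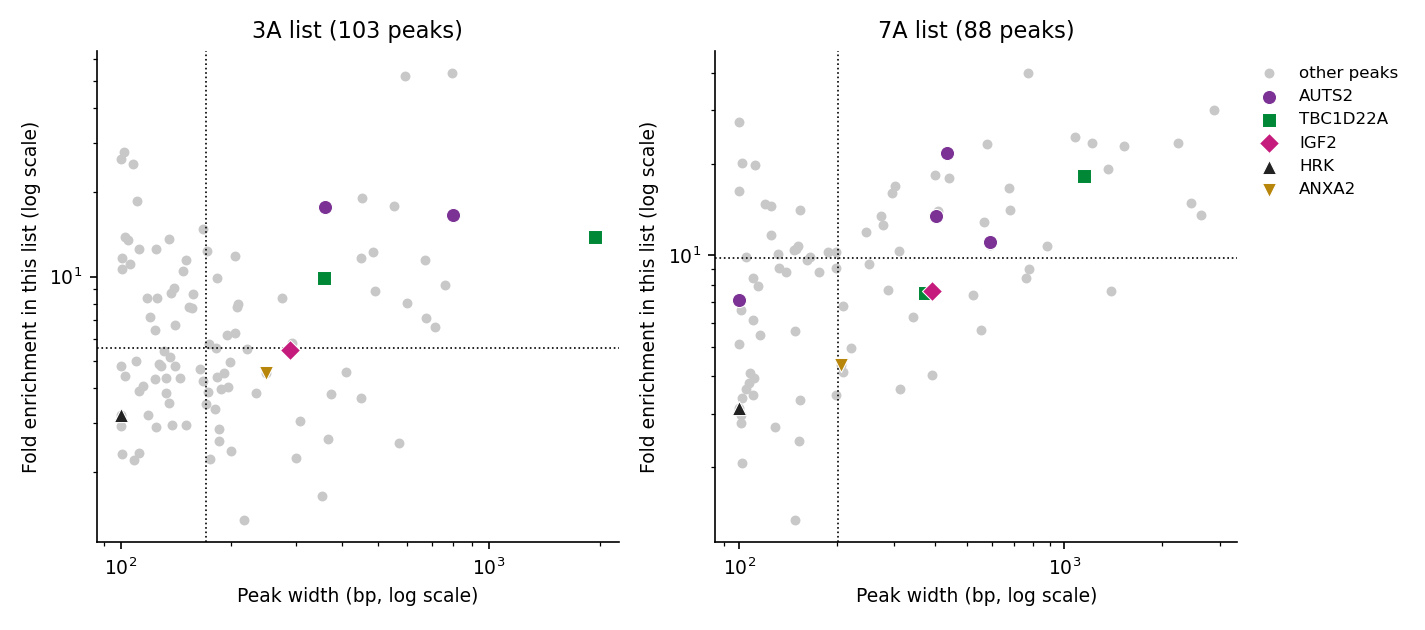
Width in bp (horizontal, log scale) and the authors' fold enrichment (vertical, log scale) of every peak of the 3A list (left) and the 7A list (right). Coloured symbols are the peaks in the 5 genes, grey points all others, and dotted lines the medians of each list; AUTS2 and TBC1D22A peaks lie toward the wide side, while HRK is at the least width of 100 bp and a low fold enrichment in both lists.

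Most of these peaks were wide for their list. Of the 7 3A peaks, 6 were at or above the list's median width of 171 bp, and their own median was 358 bp. Of the 9 7A peaks, 7 were at or above the list's median of 202 bp, and their median was 391 bp. The exceptions were HRK in both lists and the minus-strand AUTS2 peak in the 7A list. A wide peak meets other peaks more easily, so the choice of the genes by overlap bears on these widths. Over the 26 other pairs of a 3A and a 7A peak, the median width was 351 bp in 3A and 260.5 bp in 7A. In the 4 of these pairs off wild-type peaks it was 546 bp and 1299.5 bp, so width was not particular to the 5 genes. With peaks at most 500 bp apart joined, the TBC1D22A site became the widest of 93 regions in the 3A list (2368 bp) and the AUTS2 site the next (1285 bp). In the 7A list the joined sites of 1842 bp (TBC1D22A) and 998 bp (AUTS2) ranked 5 and 9 of 83.

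None of the sites was at an annotated gene start. The HRK summits were closest to one, 1850 bp (3A) and 1880 bp (7A) inside the gene, about 7.31% and 7.43% of its length. The TBC1D22A summits lay between 58.4% and 58.7% of the way along the gene, 241 to 242 kb from its start. The AUTS2 summits of the shared pair lay at 75.2% of the gene, 898 to 899 kb from the start. The IGF2 summits were 2334 bp (3A) and 2317 bp (7A) from the end of the gene, with the strand of the peak taken as that of IGF2, and the ANXA2 summits were at 99.4% of the gene's length in both lists. The promoter windows that RefSeq sequence tables give for AUTS2, TBC1D22A, HRK and ANXA2, from 250 bp before to 50 bp after a start, held no peak of any list. AUTS2 is at least as long as 99.8% of protein-coding genes and TBC1D22A as 97.7%, whereas IGF2 (45.5%) and HRK (51.2%) are of middle length and ANXA2 (69.3%) is above it. The sites covered little of the long genes: 1161 bp in 3A and 839 bp in 7A for AUTS2, and 2300 bp in 3A and 1517 bp in 7A for TBC1D22A. The annotation used gives gene spans only, so exons, introns and untranslated regions were not assigned.

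**Figure D3:**
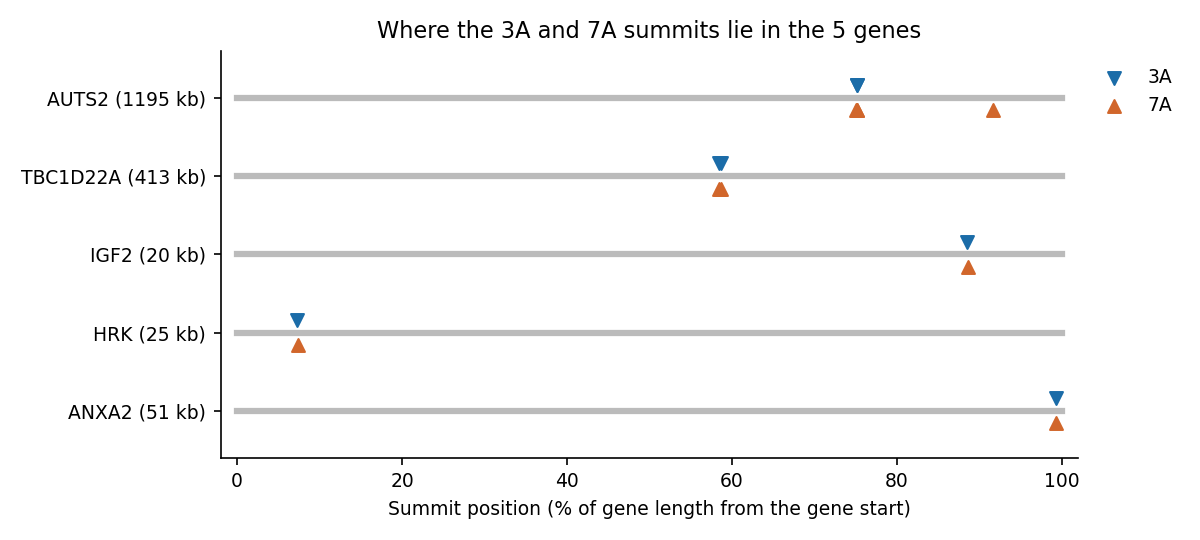
Position of each 3A summit (upper triangles) and 7A summit (lower triangles) as a percentage of the length of its gene, from the start at 0 to the end at 100, with the gene length in kb beside its name. The sites run from HRK near the start, through TBC1D22A and AUTS2, to IGF2 and ANXA2 near the end. The 7A list has further AUTS2 peaks at 75.1%, close to the shared pair, and at 91.7%.

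The 5 genes also lay far from any wild-type peak. The nearest wild-type peak was 1.26 Mb from the HRK site, in PEBP1, and 1.29 Mb from IGF2, in POLR2L. It was 2.30 Mb from the TBC1D22A site, in a position shared by PRR5 and PRR5-ARHGAP8, 2.51 Mb from the shared AUTS2 site, in STAG3L3, and 3.75 Mb from ANXA2, in CIAO2A. Each of the 16 mutant peaks in the 5 genes was thus over 1 Mb from a wild-type peak. Such distances are not rare in the genome: 30.1% of protein-coding genes were over 1 Mb from every wild-type peak. Widening the gene spans by 5000 bp brought no wild-type peak into any of the 5 genes. The wild-type list touched 2.76% of all annotated genes and 6.78% of protein-coding ones, so a gene without a wild-type peak is the usual case.

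In the whole 3A list 21.4% of peaks met no wild-type peak, and 10.7% met a 7A peak and no wild-type peak. In the 7A list 65.9% of peaks met no wild-type peak, and 12.5% met a 3A peak and no wild-type peak. The 5 genes hold 7 of the 11 3A peaks counted in this way. By gene span 6 annotated genes (0.01%) had peaks of both mutants and no wild-type peak, which are the 5 genes and INS-IGF2. Of the 22 3A peaks that met no wild-type peak, 11 met a 7A peak. Of the 10 3A peaks over 1 Mb from every wild-type peak, all 10 met a 7A peak. Of these, 7 were in the 5 genes, which were chosen for such an overlap, and 3 lay outside annotated genes. The 11 3A peaks that met neither list lay between 0.591 kb and 986 kb from a wild-type peak, with a median of 39.3 kb. In the 7A list 27 peaks were over 1 Mb away, and 10 of them met a 3A peak. The distance of 1 Mb was set after the values had been seen. Absence of wild-type peaks and overlap with a 7A peak were both part of the choice of genes, so these counts are a description.

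**Figure D4:**
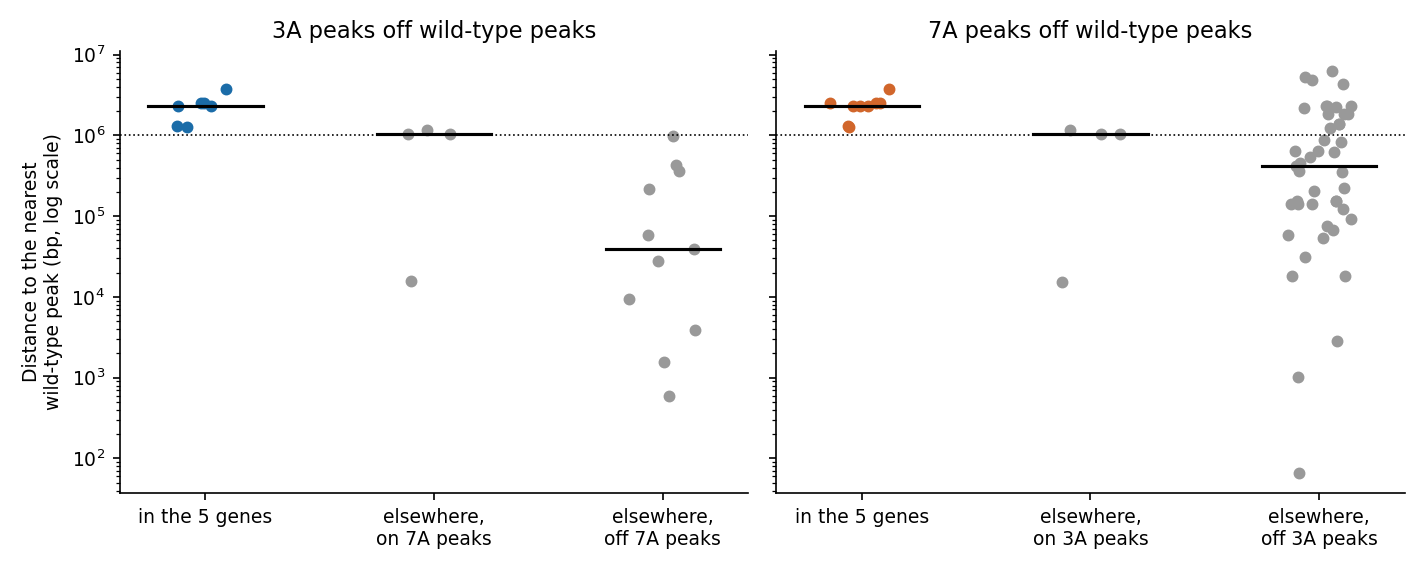
Distance in bp (log scale) to the nearest wild-type peak of each 3A peak (left) and 7A peak (right) that meets no wild-type peak, for peaks in the 5 genes, peaks elsewhere that meet a peak of the other mutant, and peaks elsewhere that do not. Black bars are medians and the dotted line is 1 Mb. All peaks in the 5 genes are above it, and no 3A peak that misses the 7A list is. The 5 genes were chosen for overlap of 3A and 7A peaks off wild-type peaks.

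Of the other 3A peaks of the same kind, 3 lay outside annotated genes. A pair lay on chromosome 2, from 8596236 to 8596726 and from 8597315 to 8597800, near the non-coding gene LOC105373411 (2143 and 1069 bp away). The last lay on chromosome 9, from 41229415 to 41230091, with MIR4477A, a microRNA gene, 3664 bp away. The 7A peak covered the whole 3A peak at both chromosome 2 positions, and 87.1% of it on chromosome 9. Like AUTS2 and TBC1D22A, the chromosome 2 site had neighbouring peaks in both lists. All 3 were wide, between 486 and 677 bp in the 3A list and between 590 and 1527 bp in the 7A list.

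The peaks closest to the limits of the rule for the 5 genes were looked up. The smallest stretch shared by a 3A and a 7A peak in these genes was the 100 bp of HRK, the full width of both peaks. The closest 3A peak outside the rule for want of a 7A overlap was a peak of 120 bp at MT2A, a metallothionein gene, 606 bp from the nearest 7A peak. On the wild-type side, the smallest overlap of a 3A peak that met both lists was 100 bp, the full width of a peak outside genes on chromosome 12. Since 100 bp is the least width in the lists, these overlaps do not show how sharply the rule divides the peaks.

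Genes related to the 5 by family or pathway had mutant peaks only where they share position with IGF2 or sequence with ANXA2. In 5 such lists, 90 genes other than the 5 were matched, of which 1 had a 3A peak, 2 a 7A peak and 4 a wild-type peak. Over all annotated genes the shares were 0.142% for 3A, 0.116% for 7A and 2.76% for wild type, and over protein-coding genes 0.359%, 0.269% and 6.78%. The 3A and 7A peaks in INS-IGF2 are the IGF2 peaks, and the second gene with a 7A peak was ANXA2P2. Of 24 other TBC-domain genes, none had a peak in any list. Of 12 other genes around AUTS2 and variant Polycomb complexes, CSNK2A1, a catalytic subunit of casein kinase 2, had wild-type peaks, with a highest fold enrichment of 11.35 in that list (rank 551 of 2149).

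Of 15 other BCL2 family genes, BAX, a pore-forming effector of apoptosis, had a wild-type peak (fold enrichment 11.3, rank 560). Among 18 other annexin and S100 genes, S100A11 (16.1, rank 217) and ANXA11 (9.59, rank 826) had 2 wild-type peaks each, and S100A10, the usual partner of ANXA2, had none. Of 21 other genes of the insulin-like growth factor axis, which include the receptors IGF1R and IGF2R and the mRNA-binding proteins IGF2BP1, IGF2BP2 and IGF2BP3, none had a wild-type peak. Among 8 bone-lineage genes looked up for the cell line, SPARC had 2 7A peaks (5.63 and 4.10, ranks 66 and 72 of 88), and the others, RUNX2, SP7, COL1A1, COL1A2, ALPL, BGLAP and SPP1, had no peak in any list. A gene without a peak is not shown to be unexpressed.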

How the data were processed

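The build hg38 and the tools BWA, cutadapt and MACS2 are named per the submitters' processing notes. Not given in the sources used here are their versions and roles, the peak-calling control and any pooling of replicates. The 3 deposited lists are in narrowPeak layout. They give each peak a strand, a fold enrichment, which is a ratio the authors computed over an unnamed control, and a −log10 q value set by the authors. The summit is a deposited offset from the peak's start. Depth per sample is unknown.

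Starts were made 1-based. Gene spans came from RefSeq (GRCh38.p14, which is hg38), and gene strands from RefSeq promoter tables, which list no IGF2. Peaks met when they shared at least 1 bp on either strand. Ranks run from the highest value, within a list. Overlaps were checked on simulated positions and against bedtools 2.31.1. The computations used Python 3.11.15, pandas 2.3.3 and NumPy 2.4.6.

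The 5 genes and the gene lists were chosen with earlier results of these data known. No test was made, since each allele has 1 list and the genes were chosen by the overlap. Named were the 5 genes with all their peaks, the hosts of other sites of the same kind, the nearest wild-type peaks, and up to 6 genes with a peak per list. Among the items this rule selects, 1 is not reported here.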

Additional observations from a re-analysis of the deposited data

How the results depend on the processing

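The 7 3A peaks in the 5 genes that met a 7A peak and no wild-type peak, and the 11 in the whole 3A list, stayed at 7 and 11 with an overlap of at least 50% of the shorter peak, with the same strand required, with a −log10 q of at least 5, and with wild-type peaks widened by 500 bp. Restricted to mutant peaks whose fold enrichment reached their own list's median, they numbered 3, at AUTS2 and TBC1D22A, and 6. This setting leaves fewer peaks by construction. The unchanged 7 at the other settings followed from values already given. Every pair was on the same strand, the lowest −log10 q was 6.94, and wild-type peaks were over 1 Mb away. The shorter peak of each pair was covered by at least 94.4%. The unchanged 7 is therefore no added support. Of the 5 genes, 0 had a wild-type peak by any setting tried. The number of peaks at or above the list's median, ranked by −log10 q, was 4 for 3A and 6 for 7A, against 4 and 4 by fold enrichment, and it was 4 and 4 without the peaks at MYC and PGK1. With peaks joined, 4 of 5 regions for 3A and 5 of 7 for 7A were at or above the median width, against 6 of 7 peaks for 3A and 7 of 9 for 7A as deposited. No paired analysis was possible because the lists carry no replicate numbers, and leaving out a replicate was impossible for want of values per replicate. Unknown depth and the short mutant lists limit every count.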
